A study of Mus musculus with 6 samples.

Results

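The genes of cholesterol synthesis and of its control were compared across endothelium-enriched cells of 3 tissues of the mouse embryo. The set held 30 genes chosen by their place in the pathway, with earlier results of these data known. They were 19 enzymes of synthesis and isoprenoid supply, 5 sensors and regulators, 4 genes of sterol uptake, carriage and export, and 2 of esterification. Counts of members set beside the shares of all genes are therefore a description. A gene was measured through a probe set annotated to it alone, and where several existed through the one with the highest mean over all arrays. This gave values for 28 of the 30 genes, among 18193 genes in all. Acat2 and Soat1 had no such probe set and were not analysed here.

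Cells were taken fresh at embryonic day 9.5 from the heart tube, the caudal-half region of the embryo (called the caudal fraction below) and the yolk sac, in mice of mixed genetic background, with no treatment named. They were sorted for surface CD31, a protein of endothelial cells, and against CD41 and CD45, which mark early blood and platelet precursors and leukocytes. There were 6 Affymetrix arrays, 2 per tissue, from independent biological replicates. No transgene or mutation is named in the labels, and how many embryos each sample represents is not given in the sources at hand. The p-values therefore measure the spread between 2 replicates of a tissue, and the number of arrays limits their precision.

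Cells build cholesterol from acetyl-CoA through mevalonate, isoprenoid diphosphates, squalene and lanosterol. When sterols in the endoplasmic reticulum run low, the escort protein SCAP carries the SREBP transcription factors to the Golgi, where they are cut and released to switch on the genes of the pathway. INSIG proteins hold SCAP back when sterols are plentiful. Oxysterol-sensing LXR receptors switch on the exporters ABCA1 and ABCG1, which load cholesterol onto lipoproteins. The yolk sac handles much of the lipid supply of the early rodent embryo through its visceral endoderm, an epithelium that secretes lipoproteins and lies against the vessels.

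Levels are RMA values. The natural log of the deposited signals has the range usual for RMA log2 values, and it was read as log2. If those signals were linear instead, every difference and standard error below would be larger by a factor of 1.44 and no limma p-value would change. Differences are given with their standard error, and a gene was called at a Benjamini-Hochberg adjusted p under 0.05 over all 18193 genes. Probe sets of different genes bind their targets with different strength, so levels are compared only within a gene. Mean levels of the 28 genes ran from 5.55 to 11.9 (median 7.45, against 5.60 over all genes). No array of any member fell in the range of bacterial control probe sets (1.33 to 4.03), which describes weak signals. Across genes, Pearson's r was 0.981 to 0.986 between replicates and 0.946 to 0.969 between tissues. Gapdh control probes at the 3' end exceeded those at the 5' end by 1.67 and 1.58 on the caudal arrays, less than on those of the heart tube (1.88 and 1.98) and the yolk sac (2.04 and 1.81). Such a gap widens with poorer RNA. For the beta-actin control probes, however, it was only -0.10 to 0.01 over all arrays.

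The fractions also differed in markers of other cells. All 8 endothelial markers were above the weak range in every tissue, and their mean level was 9.63 and 9.76 on the heart tube arrays, 10.2 and 10.3 on the caudal arrays and 10.3 and 10.4 on the yolk sac arrays. The 9 visceral endoderm markers averaged 4.33 and 4.22 on the heart tube arrays, where Rbp4, Apob and Amn were weak, 4.55 and 4.58 on the caudal arrays, where Apob and Amn were weak, and 9.40 and 9.34 on those of the yolk sac. Hnf4a was not higher in the yolk sac and lay near the weak range throughout (4.13, 4.40 and 4.08 in heart tube, caudal fraction and yolk sac). Amn reached only 4.77 in the yolk sac. The 8 cardiomyocyte markers averaged 7.09 and 7.10 in the heart tube, 4.91 and 5.13 in caudal cells and 4.49 and 4.06 in the yolk sac, with Nkx2-5 and Ryr2 weak in every tissue. The 6 measured erythroid markers averaged 6.70 and 6.61, 7.18 and 6.79, and 7.92 and 8.25 in heart tube, caudal fraction and yolk sac. The globin genes Hbb-bh1, Hba-x and Hbb-y were highest in the yolk sac, Klf1, an erythroid transcription factor, was highest in the heart tube (6.63, against 5.25 and 4.49), and Gata1 was weak on all arrays. The 4 epithelial markers averaged 5.24 and 5.37, 7.16 and 7.15, and 8.14 and 8.29 in the same order of tissues. The 5 mesenchymal markers averaged 8.70 and 8.87 in the heart tube, 6.20 and 6.45 in caudal cells and 8.11 and 8.10 in the yolk sac. Between heart tube and yolk sac they went opposite ways. Col1a1 (7.64 and 12.18) and Col1a2 (9.76 and 11.07) were higher in the yolk sac. Col3a1 (11.36 and 10.46), Pdgfra (8.36 and 4.05) and Tcf21 (6.81 and 2.74, weak in the yolk sac) were higher in the heart tube. Germ cell markers, 3 in number, were weak as a group in the heart tube (3.19 and 3.14) and higher in the caudal fraction (8.63 and 8.52) than in the yolk sac (5.86 and 5.66). The 6 leukocyte markers averaged 3.77 to 3.90 on all arrays. Ptprc, Adgre1 and Aif1 were weak in all 3 tissues, Csf1r and Cx3cr1 averaged 4.13 to 4.52 and were each weak on 1 array, and Cd68 was at 6.92 in the heart tube, 6.48 in caudal cells and 5.90 in the yolk sac. The part of these other cells, and of RNA quality, in the differences below was not tested. In such mixed RNA, fewer cells of a type and less RNA per cell cannot be told apart.

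By tissue mean, the heart tube was lowest for most of the 28 genes and the yolk sac highest for most, though not always for the same genes. Both heart tube arrays lay below the other 4 arrays for 16 of the 28 genes, among them 11 of the 18 measured enzymes of synthesis, against 17% of all genes. Both yolk sac arrays lay above the other 4 for 14 genes, again 11 of the 18 enzymes, against 16.2% of all genes. The heart tube was highest without overlap for 1 gene (10.5% of all genes), the caudal fraction lowest for 4 (8.72%) and highest for 2 (13.9%), and the yolk sac lowest for 3 (15%). By the mean alone, the heart tube was lowest for 20 of the 28 genes and the yolk sac highest for 19 (41.7% and 37.2% of all genes). These patterns were counted after the values were seen and are a description. Over the 3 tissues together, limma's moderated F called 13 of the 28 genes: Idi1, Fdps, Sqle, Lss, Msmo1, Nsdhl, Sc5d, Insig1, Srebf2, Vldlr, Stard4, Abca1 and Abcg1. Of all genes, 13.5% were called by the same test.

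**Figure D1:**
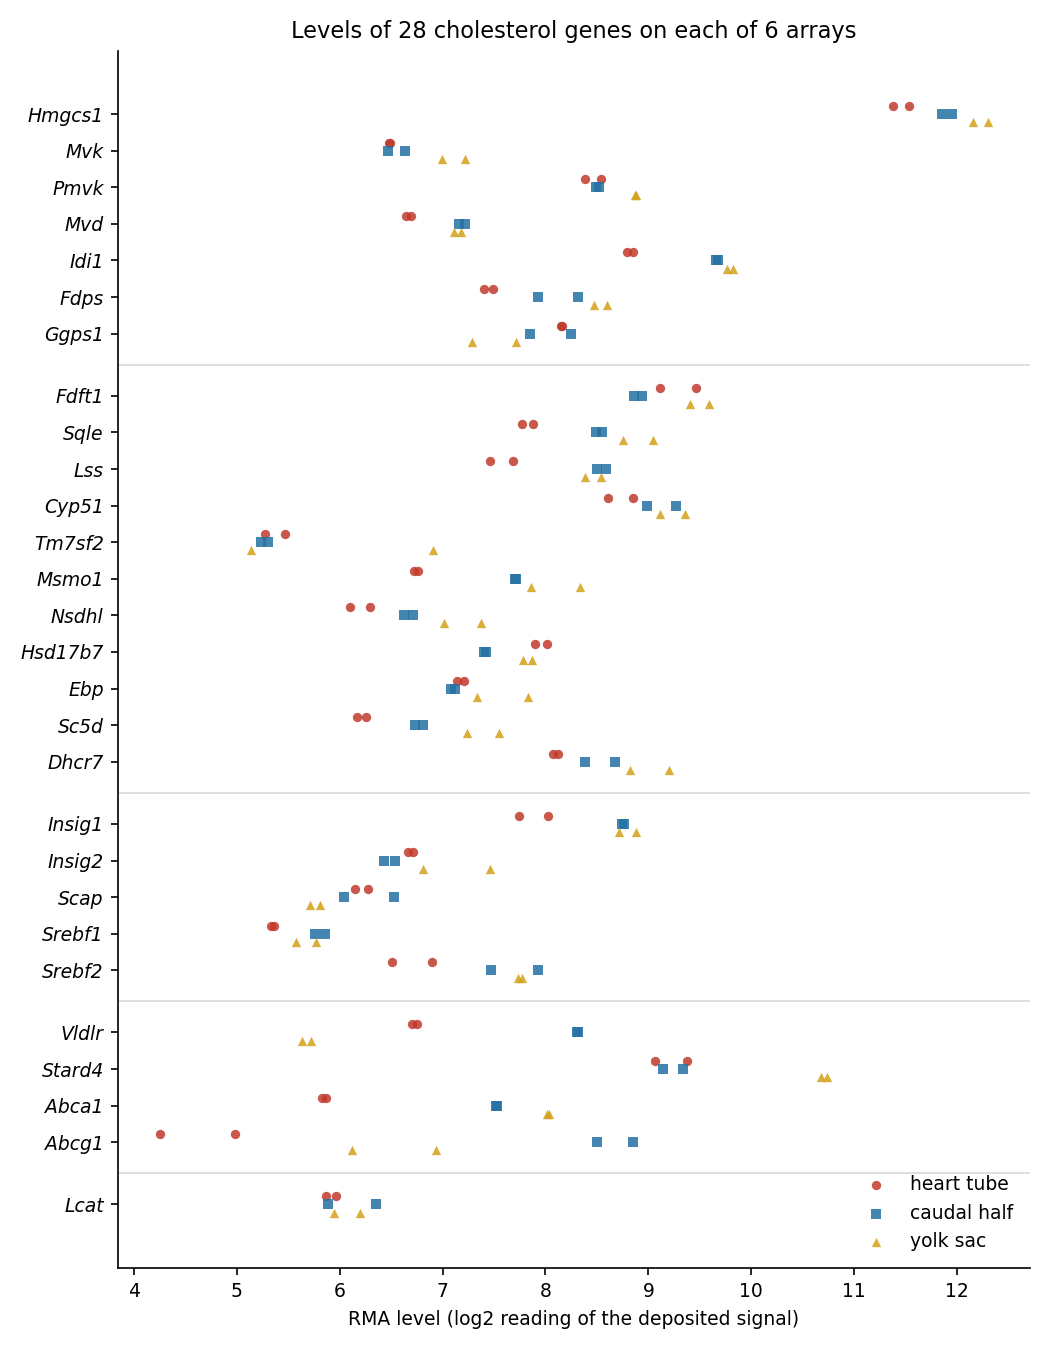
RMA level (log2 reading of the deposited signal, horizontal axis) of each of the 28 measured genes on each of the 6 arrays, ordered by role from the mevalonate steps at the top through the sterol steps, control and transport to esterification at the bottom. Circles are the 2 heart tube arrays, squares the 2 caudal arrays and triangles the 2 yolk sac arrays; the circles lie left of all other points for 16 genes.

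Against the yolk sac, 14 of the 28 genes showed lower levels in heart tube cells and 1, Vldlr, was higher. Of all genes, 6.67% were called lower and 5.14% higher in this comparison. The 14 comprised 9 of the 18 synthesis enzymes, the regulators Insig1 and Srebf2, and the carriers Stard4, Abca1 and Abcg1. The median difference of the 28 genes was -0.71, against -0.06 over all genes, and 24 of the 28 differences were negative (56% of all genes). Against the caudal fraction, 7 of the 28 genes had lower heart tube levels, where 2.65% of all genes were called lower. They were Idi1, Lss, Msmo1, Insig1, Vldlr, Abca1 and Abcg1. None was called higher, against 2.86% of all genes. At an unadjusted limma p under 0.05, 1 member was higher and 15 were lower, against 1534 and 2022 of all 18193 genes. The median difference of the 28 was -0.45, against -0.08 over all genes, and 22 of the 28 were negative (59.5% of all genes).

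The caudal fraction and the yolk sac differed less in this pathway. Vldlr and Abcg1 were higher and Stard4 lower in the caudal fraction, where 4.22% of all genes were called higher and 4.86% lower. No synthesis enzyme was called by limma in this comparison, although 15 of the 18 differences were negative. At an unadjusted limma p under 0.05, 5 enzymes were lower and 1 higher, against 2099 and 2238 of all 18193 genes. With limma's variance trend and robust prior, 2 enzymes were called lower, Hmgcs1 (-0.33, adjusted p = 0.0471) and Fdft1 (-0.60, 0.0416). The median difference of the 28 genes was -0.37, against 0.02 over all genes, and 20 of the 28 were negative (48.1% of all genes). The 3 comparisons share arrays, so their counts are not independent of each other.

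**Figure D2:**
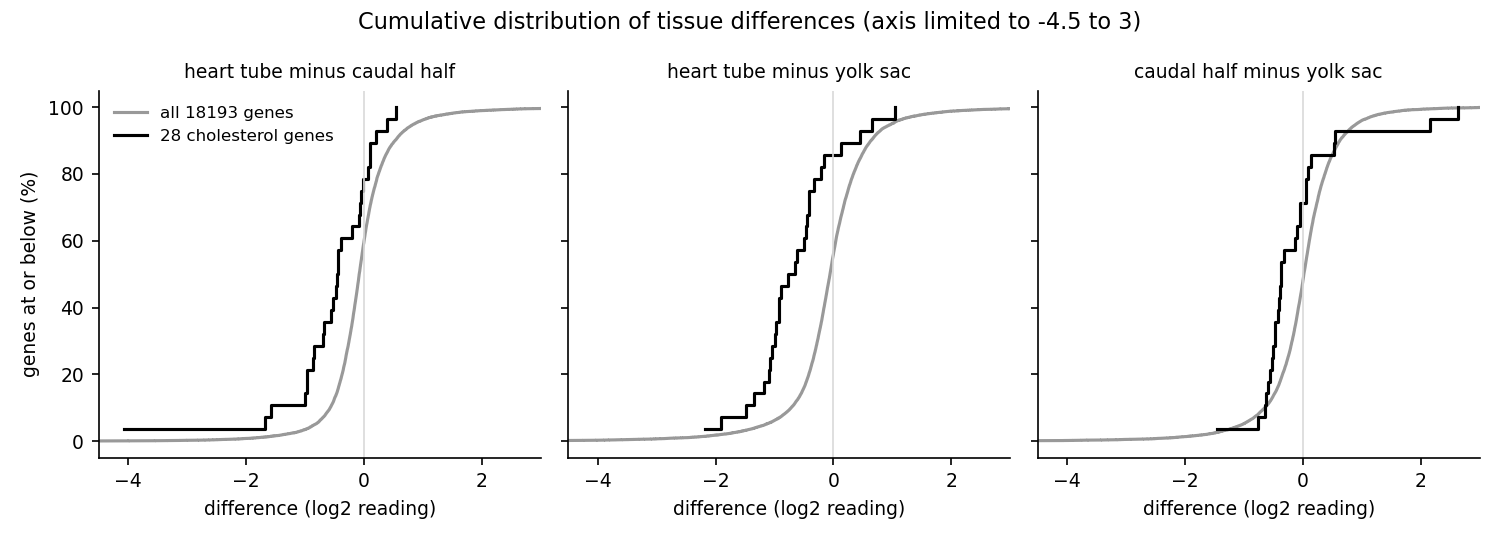
Cumulative distribution of the tissue difference (horizontal axis, log2 reading) over the 28 measured cholesterol genes (black) and all 18193 genes (grey), with the share of genes at or below each value on the vertical axis in percent. The median of the black curve lies at -0.45, -0.71 and -0.37 from the left to the right panel, and that of the grey curve at -0.08, -0.06 and 0.02.

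Calls depended on single arrays, since leaving one out leaves its tissue with 1 array, assumed to vary like the others. Of the 14 genes lower in heart tube than in yolk sac cells, 2 kept their call without the first heart tube array, 3 without the second, 5 without the first yolk sac array and 8 without the second. Without the first yolk sac array Tm7sf2 was called in addition. The count of 7 against the caudal fraction became 3 without any 1 heart tube or caudal array. Those 3 were Vldlr, Abca1 and Abcg1, and no synthesis enzyme was then called. The moderated F count of 13 became 4 without either heart tube array, 8 without the first caudal array and 7 without the second yolk sac array. No called difference changed direction in any of these fits. A variance trend with robust prior called 10 members lower than in the caudal fraction, 5 of them enzymes.

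Promoters of the enzymes were examined because the heart tube values of many of them were low together. In a RefSeq table of GRCm38.p6 promoters, which runs from 250 bases before to 50 after each start, 23 of the 28 genes had an entry. Fdps, Fdft1, Sqle, Stard4 and Abcg1 had none. The stretches shown are the 160 bases before the start. They belong to the 6 enzymes that were lower in heart tube than in yolk sac cells and have 1 annotated start. Those of their regulator Insig1 and of the exporter Abca1 are given too. Capitals mark CCAAT in either orientation (the box bound by NF-Y), TCACNCCAC (the core of the sterol regulatory element) and CACGTG (an E-box, which SREBP-1 can also bind). The CCAAT of Insig1 lies farther upstream than the stretch shown.
Hmgcs1: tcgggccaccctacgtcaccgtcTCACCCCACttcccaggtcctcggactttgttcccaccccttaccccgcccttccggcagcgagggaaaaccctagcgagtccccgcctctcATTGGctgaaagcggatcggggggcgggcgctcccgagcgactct
Idi1: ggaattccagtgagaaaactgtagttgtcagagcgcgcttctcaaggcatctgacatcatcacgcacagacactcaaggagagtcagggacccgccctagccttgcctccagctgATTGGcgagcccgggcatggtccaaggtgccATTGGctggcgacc
Lss: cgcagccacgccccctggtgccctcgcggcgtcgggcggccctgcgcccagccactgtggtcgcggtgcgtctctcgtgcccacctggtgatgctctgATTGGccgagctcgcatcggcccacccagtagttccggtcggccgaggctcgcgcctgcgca
Msmo1: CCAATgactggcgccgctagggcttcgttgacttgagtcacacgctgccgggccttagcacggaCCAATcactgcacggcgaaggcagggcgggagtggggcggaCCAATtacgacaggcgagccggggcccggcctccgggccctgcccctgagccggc
Nsdhl: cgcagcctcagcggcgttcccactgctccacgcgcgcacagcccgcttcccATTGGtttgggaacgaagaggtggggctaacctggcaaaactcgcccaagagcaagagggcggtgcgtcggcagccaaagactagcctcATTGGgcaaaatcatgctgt
Sc5d: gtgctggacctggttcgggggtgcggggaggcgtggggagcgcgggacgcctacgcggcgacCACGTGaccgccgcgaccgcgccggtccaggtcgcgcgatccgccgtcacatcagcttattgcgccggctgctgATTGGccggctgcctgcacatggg
Insig1: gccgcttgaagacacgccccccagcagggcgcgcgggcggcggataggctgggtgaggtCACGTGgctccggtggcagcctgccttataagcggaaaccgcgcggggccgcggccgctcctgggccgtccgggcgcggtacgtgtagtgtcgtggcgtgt
Abca1: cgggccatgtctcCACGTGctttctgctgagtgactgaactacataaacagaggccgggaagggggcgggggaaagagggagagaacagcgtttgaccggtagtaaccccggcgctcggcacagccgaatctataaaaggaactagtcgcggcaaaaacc

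These stretches lie at chr13:119690191-119690350 for Hmgcs1, chr13:8885446-8885605 for Idi1, chr10:76531445-76531604 for Lss, chrX:72918361-72918520 for Nsdhl and chr5:28071252-28071411 for Insig1, all on the plus strand. Those of Msmo1 (chr8:64733579-64733738), Sc5d (chr9:42264301-42264460) and Abca1 (chr4:53159896-53160055) are on the minus strand and are written in the direction of the gene. Over the 300 bases of the table and both strands, CCAAT was found in 15 of the 15 synthesis enzymes with an entry, against 42.0% of the 14452 genes that were measured and had an entry. In 10 of the 15 it occurred at least 2 times in 1 promoter, against 14.9% of those genes. NF-Y boxes beside sterol regulatory elements are a known feature of SREBP targets. Since all 15 enzymes with an entry held the box, its presence could not separate called from uncalled enzymes. Mvk, Ggps1 and Hsd17b7, not called in any comparison with the probe set used, held it 3 or more times. Single other probe sets of Ggps1 and Hsd17b7 and the mean for Mvk were called from heart tube to yolk sac. The box was not particular to enzymes, since 6 of the 8 other members with an entry held it. Abca1, an exporter among the genes with the lowest p-values, held none.

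The other motifs were rarer or widespread. TCACNCCAC occurred in 1 member, Hmgcs1, where its first base lies 137 bases before the start, and in 1.46% of the measured genes. The letters of this core allow 1 free base, so other forms of the element were not searched. GGGCGG, the GC box bound by Sp1, was in 13 of the 15 enzymes and 57.3% of the measured genes. CACGTG was in 6 of the 23 members (3 of the 15 enzymes: Sc5d, Hsd17b7 and Dhcr7), against 10.2%. The median GC content was 60.8% in the enzymes' promoters and 58.3% in those of all measured genes. A match is a string of letters and was not tested as a binding site.

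**Figure D3:**
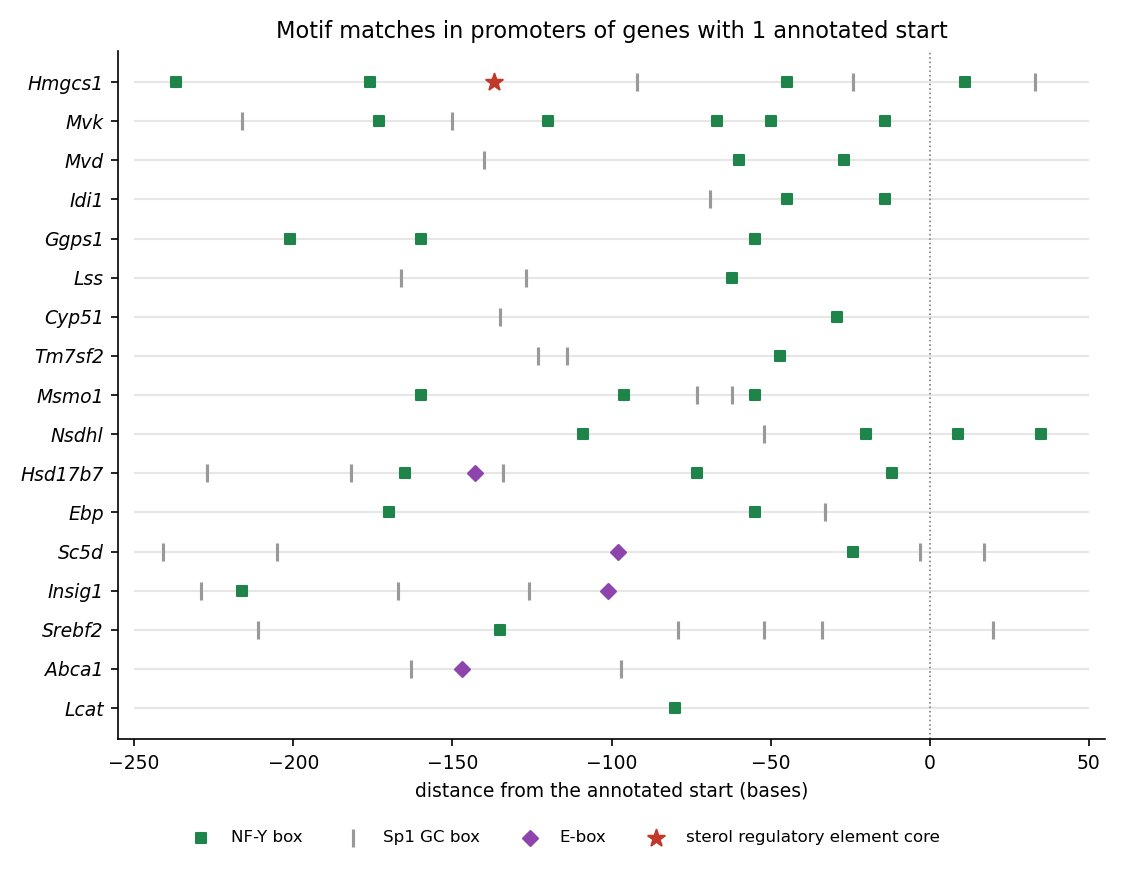
Position of motif matches (horizontal axis, bases from the annotated start at 0) in the promoters of the 17 members with 1 annotated start. Green squares are CCAAT (NF-Y box), grey bars GGGCGG (Sp1 GC box) and purple diamonds CACGTG (E-box). The red star is the sterol regulatory element core of Hmgcs1 at -137. Each gene from Hmgcs1 down to Sc5d holds at least 1 green square. So do Insig1, Srebf2 and Lcat, and Abca1 holds none.

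The first steps make mevalonate and turn it into 5-carbon isoprenoid units and then farnesyl diphosphate. Of the 7 measured genes of these steps, 3 were lower in heart tube than in yolk sac cells and 1 of these also lower than in the caudal fraction. Idi1, the isomerase that sets the balance of the isoprenoid building blocks, read 8.79 and 8.85 in the heart tube, 9.66 and 9.67 in caudal cells and 9.82 and 9.77 in the yolk sac. Both heart tube values lay well below the rest and the 3 tissues did not overlap. Heart tube minus caudal fraction was -0.84 ± 0.16 (limma adjusted p = 0.0317) and heart tube minus yolk sac -0.97 ± 0.16 (0.0109); its second probe set gave the same signs. The first call was lost without any 1 of the 6 arrays (highest adjusted p 0.173) and the second without either heart tube array or the first yolk sac array (0.0757).

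Hmgcs1, the cytosolic HMG-CoA synthase that commits carbon to the pathway, was at 11.38 and 11.54 in the heart tube, 11.86 and 11.95 in caudal cells and 12.31 and 12.16 in the yolk sac. The tissues were again ordered without overlap. Only the difference from the yolk sac was called among its 3 comparisons (-0.77 ± 0.17, limma adjusted p = 0.0321), and leaving out any 1 of the 6 arrays ended that call (0.0568 to 0.167). With a variance trend and robust prior, the difference of -0.44 from the caudal fraction was called too (limma adjusted p = 0.0200). All 5 probe sets of the gene had the same sign in both comparisons of the heart tube. Fdps, farnesyl diphosphate synthase, supplies squalene synthesis and protein prenylation. It read 7.40 and 7.49 in the heart tube, 7.93 and 8.31 in caudal cells and 8.60 and 8.47 in the yolk sac. Heart tube and yolk sac differed by -1.09 ± 0.19 (limma adjusted p = 0.0157, and 0.0504 to 0.0947 without any 1 heart tube or yolk sac array), whereas -0.68 ± 0.19 against the caudal fraction was not called (0.114). Averaged over its probe sets, the difference from the yolk sac was -0.43 and not called (limma adjusted p = 0.127). The other probe set in that mean was weak on all arrays (1.64 to 2.07).

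The remaining genes of the early steps were not called with the probe set used. Mevalonate kinase, encoded by Mvk, read 6.48 and 6.49, 6.47 and 6.64, and 7.22 and 6.99 in heart tube, caudal fraction and yolk sac. Its yolk sac arrays stood above the rest, with a difference of -0.62 ± 0.17 from heart tube to yolk sac (limma adjusted p = 0.0693) that was called when its probe sets were averaged (-0.75, 0.0341). Pmvk, the phosphomevalonate kinase, lay between 8.39 and 8.54 in the 2 embryonic tissues and at 8.88 and 8.87 in the yolk sac. Mvd, the decarboxylase that follows, was at 6.70 and 6.65 in the heart tube, 7.22 and 7.16 in caudal cells and 7.18 and 7.11 in the yolk sac, so that only the heart tube stood apart. The dimmer of its probe sets gave larger differences, -0.92 against the caudal fraction and -0.99 against the yolk sac, and the mean of both was called in each. Ggps1, which makes the longer geranylgeranyl diphosphate for prenylation and not for sterols, ran the other way: 8.16 and 8.15 in the heart tube, 7.85 and 8.24 in caudal cells and 7.71 and 7.28 in the yolk sac (0.66 ± 0.22 from heart tube to yolk sac, limma adjusted p = 0.119). All 4 of its probe sets had this sign (0.16 to 0.93), and 1 of them was called when tested on its own (0.93, limma adjusted p = 0.0230).

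The later steps join farnesyl diphosphate to squalene, close the rings and trim lanosterol to cholesterol. Of the 11 genes, 6 were lower in heart tube than in yolk sac cells and 2 of these, Lss and Msmo1, also lower than in the caudal fraction. Lss, which folds oxidosqualene into lanosterol, read 7.69 and 7.46 in the heart tube, 8.59 and 8.50 in caudal cells and 8.38 and 8.54 in the yolk sac. The heart tube stood alone, and the other tissues overlapped. Its differences were -0.97 ± 0.17 from the caudal fraction (limma adjusted p = 0.0287) and -0.89 ± 0.17 from the yolk sac (0.0227). Each call was lost without any 1 array of the tissues it compares (up to 0.158 and 0.127). A second probe set gave -0.95 and -1.01, while a dim further one (3.13 to 5.06) gave -0.03 and 0.53. Averaged over its probe sets, neither difference was called.

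Msmo1, the C-4 methylsterol oxidase, was at 6.76 and 6.72 in the heart tube, 7.71 and 7.70 in caudal cells and 8.34 and 7.86 in the yolk sac. The tissues did not overlap. Its differences of -0.96 ± 0.20 and -1.36 ± 0.20 (limma adjusted p = 0.0491 and 0.0089) from caudal fraction and yolk sac were called. The first call was lost without any 1 heart tube or caudal array (0.153 to 0.200) and with the mean of its probe sets (0.0568), the second without either heart tube array (0.0560 and 0.0581). Sqle, squalene epoxidase and a rate-limiting step of the late pathway, read 7.77 and 7.88 in the heart tube, 8.55 and 8.50 in caudal cells and 8.75 and 9.05 in the yolk sac. Heart tube minus yolk sac was -1.07 ± 0.18 (limma adjusted p = 0.0126, but 0.0843 and 0.0624 without either heart tube array and 0.0546 without yolk sac array 2), and the difference of -0.70 ± 0.18 from the caudal fraction was not called (0.0861), but was with a variance trend and robust prior (0.0435).

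Nsdhl, which removes the C-4 methyl groups with Msmo1, and Sc5d and Dhcr7, which set and reduce the double bonds of the sterol ring, shared 1 order: heart tube, caudal fraction, yolk sac, without overlap. Nsdhl was at 6.10 and 6.30, 6.62 and 6.71, and 7.37 and 7.01 in that order. Sc5d was at 6.25 and 6.17, 6.81 and 6.73, and 7.23 and 7.55. Dhcr7, whose loss causes a human malformation syndrome, was at 8.12 and 8.07, 8.67 and 8.38, and 9.20 and 8.82. Each was lower in heart tube than in yolk sac cells, with differences of -0.996 ± 0.193 for Nsdhl (limma adjusted p = 0.0220), -1.18 ± 0.18 for Sc5d (0.0093) and -0.92 ± 0.20 for Dhcr7 (0.0352). Each call was lost without either heart tube array (up to 0.125, 0.0638 and 0.153). The call of Nsdhl was also lost without the first yolk sac array (0.0914), and that of Dhcr7 without the first yolk sac array (0.137) or either caudal array (0.0517). The 2 dimmer probe sets of Sc5d gave -0.48 and -0.28 in this comparison, and the mean of its probe sets was not called. None of the 3 genes was called between heart tube and caudal fraction or between caudal fraction and yolk sac.

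Other genes of the late steps were not called by the fit used here and did not share 1 order. Fdft1, squalene synthase, was at 9.12 and 9.46 in the heart tube, 8.94 and 8.86 in caudal cells and 9.59 and 9.41 in the yolk sac, with the caudal arrays lowest. Its 4 probe sets were split in sign between heart tube and caudal fraction, and the 2 of opposite sign were dim (3.64 to 4.50). Hsd17b7, a 3-ketosteroid reductase of the pathway, read 8.01 and 7.90 in the heart tube, 7.42 and 7.40 in caudal cells and 7.87 and 7.78 in the yolk sac. It was the 1 member with both heart tube arrays above all others, and its difference of 0.55 ± 0.16 from the caudal fraction was not called (limma adjusted p = 0.120). A dimmer probe set of it gave 1.38 from heart tube to yolk sac, against 0.13 for the one used. Tested on its own, that dimmer probe set was called there (limma adjusted p = 0.0116). It was also called from caudal fraction to yolk sac (0.98, 0.0458), where the one used gave -0.42. Cyp51, the lanosterol demethylase, lay at 8.61 and 8.85, 8.99 and 9.26, and 9.11 and 9.35 in heart tube, caudal fraction and yolk sac, and 1 of its 3 probe sets had the opposite sign in both comparisons of the heart tube. Ebp, the sterol isomerase, lay between 7.08 and 7.20 in the embryonic tissues and at 7.33 and 7.83 in the yolk sac. Tm7sf2, a sterol C-14 reductase, was between 5.14 and 5.47 on 5 arrays and at 6.91 on the second yolk sac array, so that its yolk sac SD was 1.25 and its differences had standard errors of 0.52. Without the first yolk sac array it was called lower in heart tube (-1.54, limma adjusted p = 0.0164) and caudal cells (-1.64, 0.0215) than in the yolk sac, and without the second both differences turned positive (0.23 and 0.13).

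**Figure D4:**
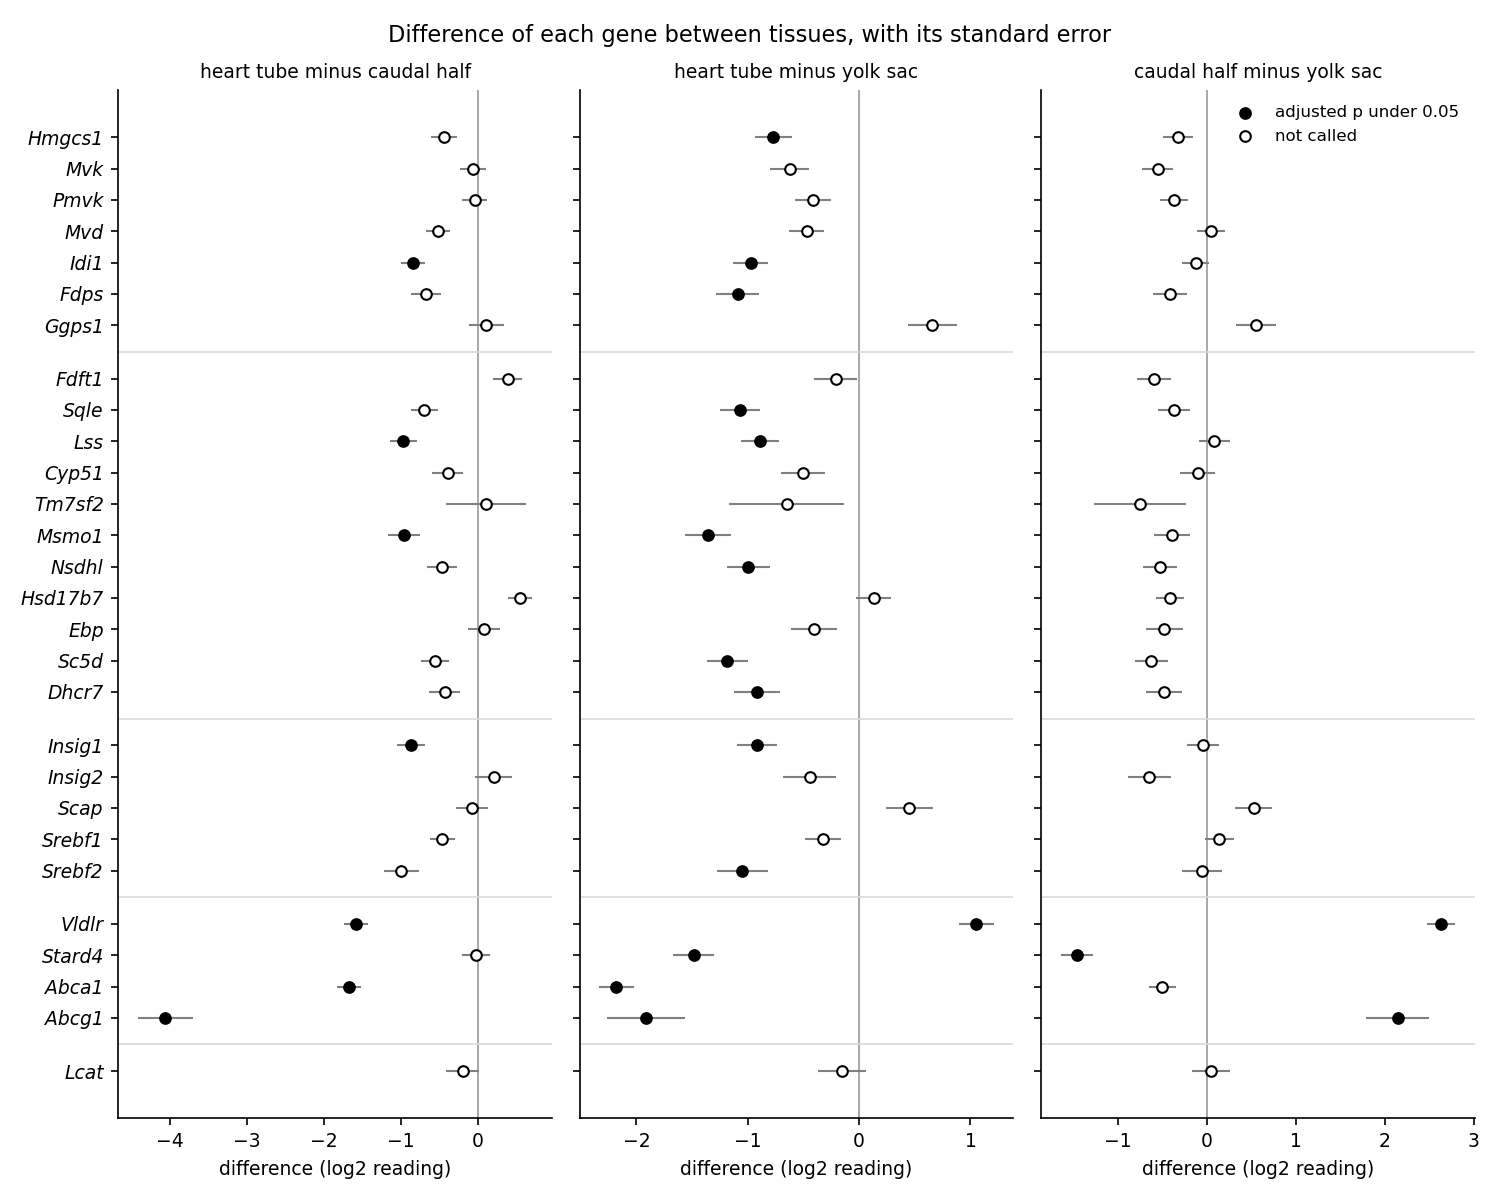
Difference between tissues (horizontal axis, log2 reading) of each measured gene, with bars of 1 standard error from the limma fit over 6 arrays; filled circles have an adjusted p under 0.05 and open circles were not called. In the left and middle panels 7 and 15 circles are filled, against 3 in the right panel, and Abcg1 at -4.06 lies farthest from 0.

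Among the regulators, Insig1 was low in the heart tube against both other tissues. Insig1, which is itself switched on by SREBP and retains SCAP in the endoplasmic reticulum, read 7.74 and 8.03 in the heart tube, 8.76 and 8.74 in caudal cells and 8.72 and 8.88 in the yolk sac. The heart tube stood apart and the other tissues overlapped. The differences were -0.87 ± 0.18 (limma adjusted p = 0.0458) and -0.92 ± 0.18 (0.0227), and the first call was lost without any 1 of the 6 arrays (up to 0.228), the second without any 1 heart tube or yolk sac array (up to 0.130). Srebf2 encodes the SREBP that mainly drives cholesterol genes. It was at 6.51 and 6.90 in the heart tube, 7.93 and 7.47 in caudal cells and 7.73 and 7.77 in the yolk sac, again with the heart tube apart. The difference from heart tube to yolk sac, -1.05 ± 0.23, was called (limma adjusted p = 0.0321), and was lost without any 1 heart tube or yolk sac array (0.0670 to 0.165). That of -0.995 ± 0.228 from the caudal fraction just missed (0.0614), and was called without dim genes (0.0492) and with a variance trend and robust prior (0.0401). Its dimmer probe set gave only -0.07 there, with caudal arrays of 5.72 and 6.97.

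The other regulators were not called in any comparison. Srebf1, whose products include the SREBP of fatty acid genes, was at 5.36 and 5.33 in the heart tube, 5.76 and 5.86 in caudal cells and 5.57 and 5.77 in the yolk sac. Both heart tube arrays were lowest, at -0.46 ± 0.17 and -0.32 ± 0.17 from the other tissues. Insig2, a second retention protein not under SREBP control, was at 6.67 and 6.71, 6.43 and 6.54, and 6.81 and 7.46 in heart tube, caudal fraction and yolk sac. Scap, the escort, was at 6.15 and 6.27, 6.53 and 6.04, and 5.81 and 5.71, so that the yolk sac was lowest. Its difference of 0.45 ± 0.21 from heart tube to yolk sac was not called (limma adjusted p = 0.236).

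The genes of uptake, carriage and export showed the largest differences of the set, and did not share 1 order of tissues. Abcg1, an exporter that passes cholesterol to HDL particles, read 4.25 and 4.98 in the heart tube, 8.50 and 8.85 in caudal cells and 6.94 and 6.12 in the yolk sac. No tissue overlapped another. Heart tube minus caudal fraction was -4.06 ± 0.35 (limma adjusted p = 0.0020), which is 16.7-fold on the log2 reading and 58.1-fold if the signals are linear. Of the 18193 genes, 15 had a difference this low or lower, Abcg1 included. Heart tube minus yolk sac was -1.91 ± 0.35 (0.0187), and caudal fraction minus yolk sac 2.15 ± 0.35 (0.0165). The first call held without any 1 array (at most 0.0200). The second was lost without the first heart tube array (0.0990) or the first yolk sac array (0.0730), and the third without either caudal array (0.0669 and 0.0874) or the second yolk sac array (0.0555). A second probe set was weak on all arrays and shows nothing of these differences.

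Abca1, which starts the transfer of cellular cholesterol to apolipoprotein A-I, was at 5.87 and 5.82 in the heart tube, 7.53 and 7.52 in caudal cells and 8.03 and 8.02 in the yolk sac. Replicates nearly coincided, and the heart tube stood far below. Its differences were -1.68 ± 0.15 from the caudal fraction (limma adjusted p = 0.0025) and -2.18 ± 0.15 from the yolk sac (0.0005), which is 3.20-fold and 4.53-fold on the log2 reading. The difference of -0.50 ± 0.15 from caudal fraction to yolk sac was not called (0.105). All 3 probe sets gave the same signs, and both calls held without any 1 array (at most 0.0266 and 0.0077). Both exporters are also abundant in macrophages. Of the 6 leukocyte markers, Ptprc, Adgre1 and Aif1 were weak in every tissue, Csf1r and Cx3cr1 lay just above the weak range on most arrays, and Cd68 was clearly above it and highest in the heart tube (6.92, 6.48 and 5.90). Their part in these differences was not tested.

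Vldlr, a receptor of the LDL receptor family that takes up triglyceride-rich lipoproteins, was highest in the caudal fraction. It read 6.71 and 6.75 in the heart tube, 8.31 and 8.32 in caudal cells and 5.63 and 5.72 in the yolk sac, with no overlap. The caudal fraction was higher than the yolk sac by 2.63 ± 0.16 (limma adjusted p = 0.0005), 6.21-fold on the log2 reading, and 40 genes, Vldlr included, had a difference this high or higher. The heart tube lay between, at -1.58 ± 0.16 from the caudal fraction (0.0033) and 1.05 ± 0.16 from the yolk sac (0.0086). All 6 probe sets gave these signs in the 3 comparisons. The call against the yolk sac was lost without either heart tube array (at most 0.0593), and the other 2 held without any 1 array.

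Stard4, a cytosolic protein that carries cholesterol between membranes and is under SREBP control, set the yolk sac apart. Its levels were 9.07 and 9.37 in the heart tube, 9.15 and 9.34 in caudal cells, and 10.68 and 10.73 in the yolk sac. The embryonic tissues overlapped and differed by -0.02 ± 0.18 (95% interval -0.46 to 0.42). Both were lower than the yolk sac, the heart tube at -1.49 ± 0.18 (limma adjusted p = 0.0044) and the caudal fraction at -1.46 ± 0.18 (0.0066), and all 3 probe sets gave these signs. These calls held without any 1 array (at most 0.0361 and 0.0468). The mean of the 9 visceral endoderm markers also set the yolk sac apart, at 9.34 to 9.40 against 4.22 to 4.58, although Hnf4a alone did not. The part of visceral endoderm in the Stard4 difference was not tested. Lcat, the plasma enzyme that esterifies cholesterol on lipoproteins and the 1 measured gene of esterification, lay between 5.87 and 6.35 on all arrays with every tissue overlapping.

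**Figure D5:**
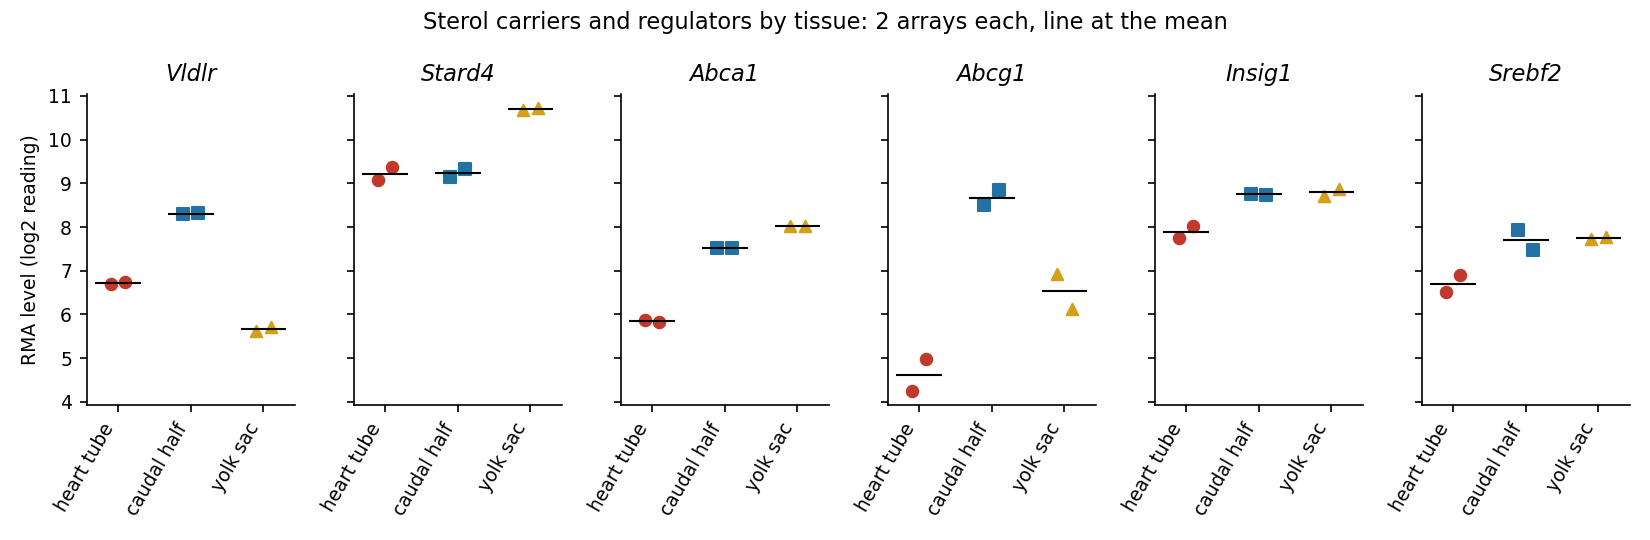
RMA level (log2 reading, vertical axis) of 4 genes of sterol uptake, carriage and export and of the regulators Insig1 and Srebf2 on the 2 arrays of each tissue (points), with a line at the tissue mean. Abcg1 and Vldlr peak in the caudal fraction at 8.68 and 8.31, Stard4 and Abca1 in the yolk sac at 10.71 and 8.02, and the heart tube is lowest for Abca1, Abcg1, Insig1 and Srebf2.

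Neighbouring pathways were counted in the same way, list by list. Of 16 genes of fatty acid synthesis, many of them SREBP targets, 1 was higher and 1 lower in heart tube than in caudal cells: Me1, malic enzyme (1.57), and Scd1, a stearoyl-CoA desaturase (-2.35), where 2.86% and 2.65% of all genes were called. These 2 calls became 1 without heart tube array 1 or caudal array 2 and 0 without caudal array 1. Against the yolk sac, where 5.14% of all genes were called higher and 6.67% lower, Me1 was again higher (1.84). Scd1 (-1.93) and Mid1ip1, a regulator of acetyl-CoA carboxylase (-1.06), were lower there. This count of 3 became 1 and 2 without the first and second heart tube array, 2 without the first yolk sac array, 5 with a variance trend and robust prior and 6 when probe sets were averaged. Acaca, acetyl-CoA carboxylase, was higher in the caudal fraction than in the yolk sac (1.43), the 1 call in that comparison, where 4.22% of all genes were called higher. No gene of the list was called there without any 1 array other than the second yolk sac array or in a fit of the 2 tissues alone, and 3 were when probe sets were averaged. Scd1 read 4.69 and 5.68 in the heart tube, 7.36 and 7.71 in caudal cells and 7.30 and 6.92 in the yolk sac.

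Among the 14 measured genes of LXR and sterol sensing, 2 were lower in heart tube than in yolk sac cells: Rxra, a retinoid X receptor that pairs with LXR (-0.88), and Mylip, an LXR-induced ubiquitin ligase of lipoprotein receptors (-1.47), where 6.67% of all genes were called lower. At most 1 of the list was called there without any 1 array, 1 in a fit of the 2 tissues alone or with averaged probe sets, and 0 with the replicate block. None was called by limma in the other comparisons (1 in each under some alternatives), where 2 were higher and 0 lower (heart tube against caudal fraction) and 0 higher and 2 lower (caudal fraction against yolk sac) at an unadjusted p under 0.05. Of all 18193 genes, 1534 were higher and 2022 lower at that threshold in the former comparison, and 2238 and 2099 in the latter. Of 10 measured genes of sterol uptake and storage, Lipa, the lysosomal acid lipase, was at 9.31 and 9.45 in the heart tube, 8.42 and 8.48 in caudal cells and 10.27 and 10.19 in the yolk sac, and was called in all 3 comparisons (0.93, -0.85 and -1.78). Scarb1, an HDL receptor, was lower in the heart tube (-1.76) and the caudal fraction (-1.22) than in the yolk sac. Lrp8, a receptor related to Vldlr, was higher in the caudal fraction than in the heart tube (-1.42 from heart tube to caudal fraction) and the yolk sac (1.97). Of all genes, 2.86% and 2.65% were called higher and lower in heart tube than in caudal cells. These shares were 5.14% and 6.67% for heart tube against yolk sac, and 4.22% and 4.86% for caudal fraction against yolk sac. The 2 calls of this list between heart tube and caudal fraction became 0 without any 1 array of these tissues and 1 with the replicate block, and the 2 between heart tube and yolk sac became 1 without any 1 array of those. Of 13 measured genes of oxysterol and non-sterol isoprenoid metabolism, limma called 0 in every comparison (1 between caudal fraction and yolk sac with a variance trend and robust prior), with 4, 1 and 4 at an unadjusted p under 0.05 for heart tube against caudal fraction, heart tube against yolk sac and caudal fraction against yolk sac. At that threshold 1534 of all 18193 genes were higher and 2022 lower, then 2150 and 2584, and 2238 and 2099, in the same order of comparisons.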

How the data were processed

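RNA of CD31+/CD41-/CD45- cells from 3 tissues was measured on 6 arrays, 2 per tissue. Per the submitters' processing notes, RMA from affy produced the deposited signal, 1 value per probe set; their versions are not given in the sources at hand. Signals ran from 2.46 to 2172540, beyond the 65535 that a 16-bit scanner can record. Their natural log ran from 0.899 to 14.6 and was therefore taken as RMA log2. The fixed design assumed log2 values, and its test was kept.

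Of 45101 probe sets, 64 were controls. The platform annotation gave 1 symbol to 34958, several to 932 and none to 9211. Tissue means were fitted over all arrays with limma 3.58.1 in R 4.3.3 (lmFit, eBayes; 3 residual and 3.48 prior degrees of freedom). Differences were tested two-sided, with Benjamini-Hochberg adjustment over 18193 genes. The median standard error was 0.210. The smallest called differences were 0.73, 0.64 and 0.66 in size in the 3 comparisons, and some larger differences were not called. Scripts were tested on simulated data.

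Every measured member is named, as are called genes of other lists, up to 6 per comparison. Members and lists were chosen with earlier results of these data known. Alternatives were 2 scalings, the mean of a gene's probe sets, a filter on dim genes, log2 of the signals, a variance trend with robust prior, fits of 2 tissues, a replicate block, and leaving out each array. Counts of synthesis enzymes and other lists were added after seeing the data. Deviations between a tissue's replicates were nearly uncorrelated across tissues (0.05, -0.01 and 0.02). This cannot show whether samples sharing a replicate number came from the same embryos. Promoters came from a RefSeq table of GRCm38.p6.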

Additional observations from a re-analysis of the deposited data

How the results depend on the processing

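Of 25 called differences, 7 kept their call in all 14 alternatives: Vldlr, Abca1 and Abcg1 between heart tube and caudal fraction, Stard4 and Abca1 between heart tube and yolk sac, and Vldlr and Stard4 between caudal fraction and yolk sac. The other 18 missed the threshold in at least 1 alternative, and 0 changed direction. Quantile normalization, centring on the array median and log2 of the signals changed no call of a member difference. On the last scale the median differences were -0.65, -1.03 and -0.54 by construction. Of 59 uncalled differences, 16 changed sign somewhere.

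When a gene's probe sets were averaged, the median difference between caudal fraction and yolk sac became -0.21. The sign turned for Fdft1 (-0.059, heart tube minus caudal fraction), Scap (-0.12, heart tube minus yolk sac), Mvd (-0.012) and Hsd17b7 (0.042, both caudal fraction minus yolk sac). Calls were lost there for Lss and Msmo1 against the caudal fraction and Fdps, Lss and Sc5d against the yolk sac. The second probe sets of Fdps (1.64 to 2.07) and Scap (3.03 to 3.93) that entered these means were weak on all arrays. With a variance trend and robust prior, 10 members, 5 of them enzymes, were called lower in the heart tube than the caudal fraction, Hmgcs1, Sqle and Srebf2 in addition. That setting called 3 members lower in the caudal fraction than the yolk sac and 1214 genes higher. Fits of 2 tissues alone, with fewer arrays, gave 475 such genes, and Idi1 (limma adjusted p 0.0515) and Insig1 (0.0661) missed between heart tube and caudal fraction, Hmgcs1 (0.0568) and Dhcr7 (0.0517) between heart tube and yolk sac. The cause of the other shifts was not tested.

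With the replicate block, 3 members were called lower in the heart tube than the caudal fraction, since Idi1, Lss, Msmo1 and Insig1 missed (limma adjusted p 0.0593, 0.0555, 0.0704 and 0.0663). Between heart tube and yolk sac Hmgcs1 (0.0553) and Srebf2 (0.0593) missed too. The block changed no other call of a member difference. Replicates share a number only, so this says nothing of pairing.

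Without 1 array, called members were 3 to 5 lower between heart tube and caudal fraction, 2 to 12 lower and 0 to 1 higher between heart tube and yolk sac, and 1 to 2 lower and 1 to 2 higher between caudal fraction and yolk sac. The moderated F called 4 to 10. All genes called numbered 208 to 493 higher and 168 to 406 lower, 387 to 764 and 549 to 1030, and 222 to 475 and 416 to 680 in the same order. For heart tube minus caudal fraction, uncalled differences crossed 0 for Mvk (-0.15 to 0.017), Pmvk (-0.12 to 0.034), Ggps1 (-0.089 to 0.31), Scap (-0.32 to 0.17), Stard4 (-0.17 to 0.13) and Lcat (-0.43 to 0.034). Tm7sf2 crossed 0 for heart tube minus yolk sac (-1.54 to 0.23). For caudal fraction minus yolk sac, Tm7sf2 (-1.64 to 0.13), Cyp51 (-0.24 to 0.032), Insig1 (-0.13 to 0.032), Srebf2 (-0.28 to 0.18) and Lcat (-0.19 to 0.28) did.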
